A study of Mus musculus with 9 samples.

Results

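Gas5, Snhg1, Snhg3, Snhg5, Snhg6, Snhg8 and Snhg12 are long noncoding genes whose introns hold small nucleolar RNAs (snoRNAs). They were taken by gene symbol from tables of milk fat RNA, and these 7 genes are part of 11206 genes listed in at least 1 library. The study sequenced total RNA from the milk fat of 9 first-litter female ICR mice, an outbred CD1 stock, 1 library per dam, at lactation day 10. The high fat diet group (n = 4) received 60% of energy from fat at 5.24 kcal/g, and the control diet group (n = 5) received 10% of energy from fat at 3.85 kcal/g. Both diets held 7% of energy as sucrose, and all dams were put on their diet at 4 weeks of age, 4 weeks before mating, and kept on it through pregnancy and lactation. Milk fat globules carry cytoplasm of the secretory cells of the mammary gland, so the RNA samples what those cells shed and not the whole gland as such. Some markers of neutrophils and macrophages were listed too, so the RNA need not come from secretory cells alone.

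A snoRNA host gene is transcribed and spliced like an mRNA. The introns are trimmed to snoRNAs, which guide the chemical modification or the cleavage of ribosomal RNA. The joined exons leave the nucleus as a host RNA that in many cases encodes no conserved protein and is destroyed when ribosomes reach an early stop codon, a process called nonsense-mediated decay. Many host genes start transcription at a C followed by a run of pyrimidines, the TOP tract that is also found at the start of ribosomal protein mRNAs and ties their translation to growth signalling. Box C/D snoRNAs guide the methylation of ribose and box H/ACA snoRNAs guide pseudouridine formation.

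The start regions of the host genes are shown because the TOP tract is a known feature of many genes of this class. They are RefSeq sequences on GRCm38.p6 and cover 30 bases before and 50 bases from the annotated first base. Capitals mark a C followed by at least 4 C or T within 10 bases before to 20 bases after the first base. Of the 7 genes, 6 had an entry, and Gas5 had 2 entries. Snhg6 had none.
Gas5, chr1:161035136-161035215, plus strand: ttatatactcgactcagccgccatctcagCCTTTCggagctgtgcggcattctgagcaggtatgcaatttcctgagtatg
Snhg8, chr3:123508287-123508366, minus strand: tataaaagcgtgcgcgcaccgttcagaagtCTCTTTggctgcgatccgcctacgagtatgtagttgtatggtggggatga
Snhg12, chr4:132308648-132308727, plus strand: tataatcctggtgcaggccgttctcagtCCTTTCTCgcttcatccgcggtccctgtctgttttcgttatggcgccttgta
Snhg3, chr4:132353637-132353716, minus strand: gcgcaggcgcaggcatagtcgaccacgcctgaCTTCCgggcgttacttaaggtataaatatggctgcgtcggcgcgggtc
Snhg5, chr9:88522848-88522927, minus strand: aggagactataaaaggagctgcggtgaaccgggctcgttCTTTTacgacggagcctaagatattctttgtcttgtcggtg
Snhg1, chr19:8723457-8723536, plus strand: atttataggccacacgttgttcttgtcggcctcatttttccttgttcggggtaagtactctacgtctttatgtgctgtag

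A match that reads from a C at the annotated first base itself was found in 2 of the 7 entries, those of Gas5 and Snhg8, or 28.6% of entries. In Snhg12 the capitals run across the first base, but that base is not a C. Over all 32851 RefSeq entries the share was 2.51%, and over 68 entries of cytosolic ribosomal protein genes it was 20.6%. Anywhere in the searched window on the transcribed strand, 5 of the 7 entries held it (71.4%), against 60.3% of ribosomal protein entries and 37.6% of all entries. On the opposite strand 1 entry held it (14.3%), against 44.9% of all entries. Snhg1 and the upstream Gas5 entry held no match, which says only that these letters are not in the window searched. A match describes the letters, and start sites were not measured here.

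The host genes lie on 5 chromosomes of GRCm38. Gas5 is at chr1:161034422-161038539 on the plus strand and Snhg6 at chr1:9941959-9944118 on the minus strand. Snhg12, at chr4:132308678-132311024 on the plus strand, and Snhg3, at chr4:132348014-132353686 on the minus strand, are neighbours. Snhg8 is at chr3:123507552-123508404 on the minus strand and Snhg5 at chr9:88521050-88522929 on the minus strand. Snhg1 is at chr19:8723475-8726443 on the plus strand. The Snhg3 locus shares 5592 bases with the protein-coding gene Rcc1 on the same strand, so fragments of the pair can be split between them and the values of Snhg3 are uncertain. Rcc1 was listed at 1.00 and 4.34 FPKM in high fat diet libraries 1 and 2, against 1.18, 2.78, 1.48 and 6.12 FPKM in control diet libraries 2 to 5. Genes on the opposite strand that overlap Gas5, Snhg3 or Snhg6 were listed in none of the 9 libraries.

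The values are FPKM, fragment counts scaled to transcript length and to the mapped fragments of the library, and a gene has a row only where its FPKM is above 1. A gene without a row is called unlisted. High fat diet libraries listed 2075 to 7974 genes, and control diet libraries listed 7098 to 8903. High fat diet 3 stood apart with the 2075 listed genes, and results that rest on it or on high fat diet 2 are given without them as well. This pair does not have the fewest listed genes of the diet: high fat diet 4 listed 4986 and high fat diet 2 listed 5124. The secretory epithelial markers were present: all 8 of 8 were listed, with a summed 35.3 to 347 FPKM in high fat diet libraries and 278 to 658 FPKM in control diet libraries. Of 6 neutrophil markers 3 were listed, and their sum was 93.1 FPKM in high fat diet 1 and 4.44 to 14.3 FPKM in control diet libraries, while none was listed in the remaining 3 high fat diet libraries, with Ly6g, Cxcr2 and Mmp8 unlisted throughout. Of 6 macrophage markers 4 were listed, summing to 33.8 FPKM in high fat diet 3, at most 7.68 FPKM in the remaining 3 of that diet and 1.08 to 13.2 FPKM in control diet libraries, with Adgre1 and Csf1r unlisted. The 6 T and B cell markers were unlisted in all 9 libraries, that is, at or below 1 FPKM. Of 6 basal markers 2 were listed, summing to at most 6.06 FPKM in high fat diet libraries, with no row in high fat diet 3, and 4.22 to 8.22 FPKM in control diet libraries. Only 1 of 5 adipocyte markers and 1 of 6 fibroblast and endothelial markers were listed, each in control diet 5 alone. The part of cell makeup in the results below was not tested, and in such bulk RNA fewer cells of a type and less RNA per cell cannot be told apart.

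All 7 host RNAs were found in milk fat of both diets. Gas5 and Snhg8 were listed in 9 of 9 libraries, Snhg3 in 8, Snhg1 in 7, Snhg12 in 6, and Snhg5 and Snhg6 in 5. High fat diet libraries 1 to 4 listed 7, 4, 2 and 5 of them, with summed levels of 59.2, 13.8, 3.80 and 21.3 FPKM. Control diet libraries 1 to 5 listed 7, 4, 7, 7 and 6, with summed levels of 78.1, 14.4, 52.6, 53.2 and 33.1 FPKM. High fat diet 1 was thus level with the fuller control diet libraries, while control diet 2 lay with high fat diet 2, and the diets overlapped. Of the 63 values 49 were listed. The deposited confidence bounds imply a median of 10.5 fragments behind each, from 1.37 to 67.3, with 22 values under 10 implied fragments and 8 whose lower bound is 0. This reads the bounds as counting error alone and is not a count of fragments.

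**Figure D1:**
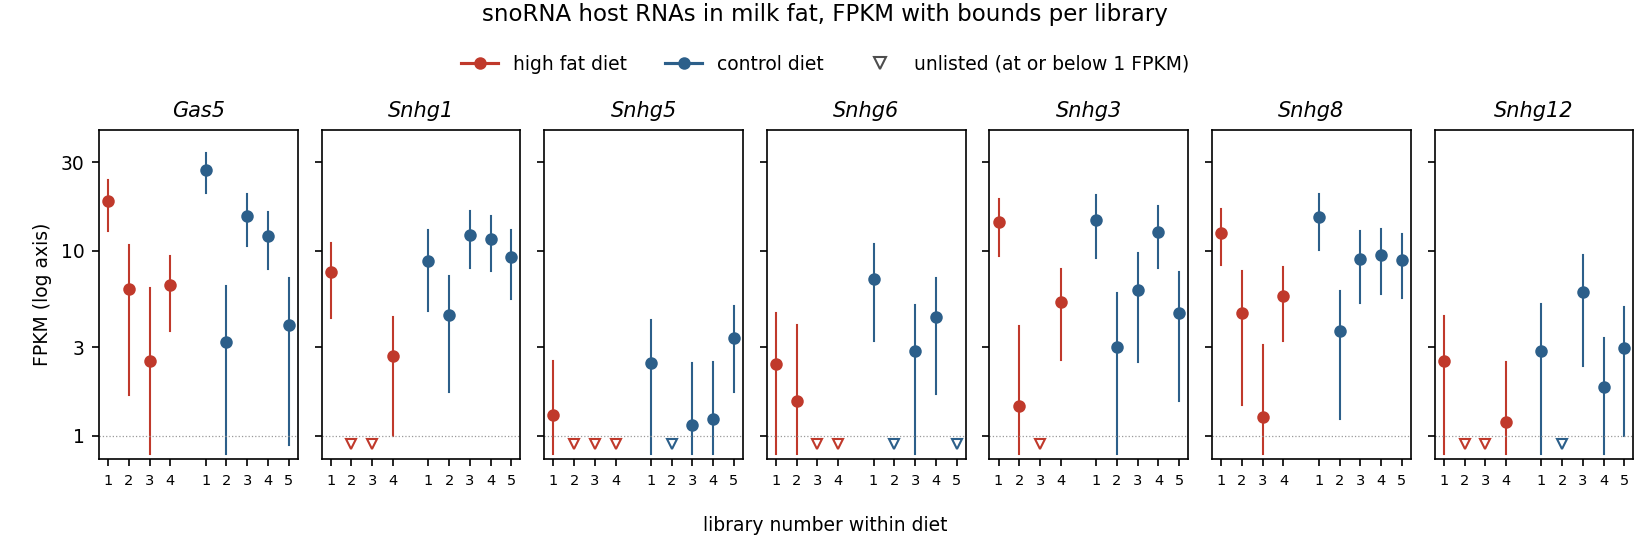
FPKM of each host RNA (log axis) in the 4 high fat diet libraries, left in each panel, and the 5 control diet libraries, right; points are deposited values, bars the deposited confidence bounds (cut at the axis where they reach lower), and open triangles unlisted values drawn just under 1. Gas5 and Snhg8 have a point in all 9 libraries, Snhg1 is unlisted in high fat diet 2 and 3 only, and the diets overlap in every panel.

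Gas5, named for its build-up in growth-arrested cells, hosts a cluster of box C/D snoRNAs; in human cells its exons fold into a mimic of the DNA element bound by the glucocorticoid receptor. It had 18.5, 6.21, 2.53 and 6.49 FPKM in high fat diet libraries 1 to 4, against 27.1, 3.21, 15.4, 12.0 and 3.98 FPKM in control diet libraries 1 to 5. High fat diet 1 was the second highest of the 9 libraries, and control diet 2 and 5 lay below 3 of the 4 high fat diet libraries. The means were 8.43 ± 6.95 FPKM (SD, n = 4) on the high fat diet and 12.4 ± 9.77 FPKM (SD, n = 5) on the control diet. The log2 fold change, fitted to log2(FPKM + 1) across all genes, was -0.42 with a standard error of 0.67 (limma, adjusted p = 0.55). Its sign turned to 0.69 with size factors, 0.46 with ribosomal protein scaling and 0.21 without high fat diet 2 and 3.

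Snhg1 is the host of Snord22 and 7 further annotated snoRNAs, and its spliced RNA is a classic example of a short-lived host RNA. It had 7.68 FPKM in high fat diet 1 and 2.70 FPKM in high fat diet 4 and was unlisted in high fat diet 2 and 3, against 8.82, 4.50, 12.2, 11.6 and 9.21 FPKM in control diet libraries 1 to 5. It was thus listed in every control diet library, and high fat diet 1 lay above control diet 2, so the diets overlapped. Snhg1 was lower on the high fat diet by the test, with a log2 fold change of -2.05 and a standard error of 0.61 (limma, adjusted p = 0.0269). It was 1 of 7 members called lower, against 20.8% of all genes tested, so the count by itself is no result about the members. No member was called higher, against 0% of all genes, and none of the 7 separated the diets without overlap, against 11.1% of all genes. The call rested on single libraries: the limma adjusted p was 0.0936 without high fat diet 2 (log2 fold change -1.63), 0.118 without high fat diet 3 (-1.63) and 0.441 without both (-0.79). Snhg1 was unlisted in just these libraries, so leaving them out had to make its difference smaller. Without control diet 3, 4 or 5 it was 0.0838, 0.0575 and 0.0562, at log2 fold changes of -1.94, -1.96 and -2.03. The call also ended under each scaling of the libraries (limma, adjusted p = 0.172 with size factors, 0.112 with ribosomal protein scaling and 0.549 with quantile normalization), while the direction stayed. With size factors and ribosomal protein scaling, the unlisted values of high fat diet 2 and 3 stayed at 0. The size factor of high fat diet 3 was 0.213, so a value just under 1 FPKM there would rise several-fold. How far the kept direction rests on these zeros was not tested.

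Snhg5, host of the box C/D pair Snord50a and Snord50b, had 1.30 FPKM in high fat diet 1 and was unlisted in the other 3 high fat diet libraries, against 2.46, 1.15, 1.23 and 3.39 FPKM in control diet libraries 1, 3, 4 and 5 and no row in control diet 2. Of its 5 listed values 4 rested on fewer than 10 implied fragments, while control diet 5 had 16.6, with a lower bound of 1.73 FPKM. High fat diet 1 fell among the control diet libraries. Its log2 fold change was -0.94 with a standard error of 0.44 (limma, adjusted p = 0.0855). Without high fat diet 1 the limma adjusted p became 0.0263 (-1.24), and without control diet 2 it became 0.0369 (-1.25). Snhg5 was listed in high fat diet 1 alone of its diet and unlisted in control diet 2 alone of its diet. Leaving out either library thus had to make its difference larger. In these 2 settings 5215 and 2348 of 7983 genes were called lower, so neither pass is by itself a result about Snhg5.

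Snhg6, host of the box C/D snoRNA Snord87, had 2.45 and 1.55 FPKM in high fat diet 1 and 2 and no row in 3 and 4, against 7.04, 2.86 and 4.38 FPKM in control diet 1, 3 and 4 and no row in 2 and 5. Its listed values were all higher in control diet libraries, but unlisted libraries occurred in both diets. The log2 fold change was -0.69 with a standard error of 0.51 (limma, adjusted p = 0.226).

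Snhg3 hosts Snora73a and Snora73b, H/ACA-class snoRNAs needed to cleave the precursor of the small-subunit ribosomal RNA. It had 14.2, 1.45 and 5.26 FPKM in high fat diet 1, 2 and 4 and no row in 3, against 14.6, 3.01, 6.14, 12.7 and 4.61 FPKM in control diet libraries 1 to 5. High fat diet 1 matched the highest control diet library within the deposited bounds, and the diets overlapped. The log2 fold change was -1.05 with a standard error of 0.64 (limma, adjusted p = 0.154). It was -1.70 without high fat diet 1 (limma, adjusted p = 0.0311) and 0.27 without high fat diet 2 and 3. Without high fat diet 1, 5215 of 7983 genes were called lower, with a median of -1.37. The pass of Snhg3 there is by itself no result about Snhg3.

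Snhg8, host of the H/ACA snoRNA Snora24, had 12.5, 4.63, 1.27 and 5.70 FPKM in high fat diet libraries 1 to 4, against 15.2, 3.66, 8.98, 9.45 and 8.92 FPKM in control diet libraries 1 to 5. High fat diet 1 was second highest of all and control diet 2 second lowest. The means were 6.03 ± 4.71 FPKM (SD, n = 4) on the high fat diet and 9.25 ± 4.10 FPKM (SD, n = 5) on the control diet, and the log2 fold change was -0.71 with a standard error of 0.64 (limma, adjusted p = 0.306). The sign turned to 0.32 with size factors and 0.08 with ribosomal protein scaling.

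Snhg12, host of Snora16a, Snora44, Snora61 and Snord99, had 2.54 and 1.18 FPKM in high fat diet 1 and 4 and no row in 2 and 3, against 2.87, 5.95, 1.84 and 2.99 FPKM in control diet 1, 3, 4 and 5 and no row in 2. The ranges overlapped, and 5 of its 6 listed values rested on fewer than 10 implied fragments. The log2 fold change was -0.91 with a standard error of 0.50 (limma, adjusted p = 0.125). The limma adjusted p was 0.0472 without high fat diet 1 (-1.27), where 5215 of 7983 genes were called lower. That pass is by itself no result about Snhg12.

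The median log2 fold change of the 7 host RNAs was -0.91 and that of all 7983 genes tested was -1.08. Snhg1 sat at the 2.67th percentile of all fold changes and Gas5 at the 93.9th, while Snhg3, Snhg5, Snhg12, Snhg8 and Snhg6 lay between the 53.6th and 83.6th. With size factors the medians became -0.44 for the members and -0.55 for all genes, and with ribosomal protein scaling -0.60 and -0.74. Without high fat diet 2 and 3 the log2 fold changes were -0.64 for Snhg5, -0.58 for Snhg6, -0.18 for Snhg12 and -0.00102 for Snhg8, none of which passed (limma, adjusted p = 0.527 to 0.999), and the median of all genes was -0.67.

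**Figure D2:**
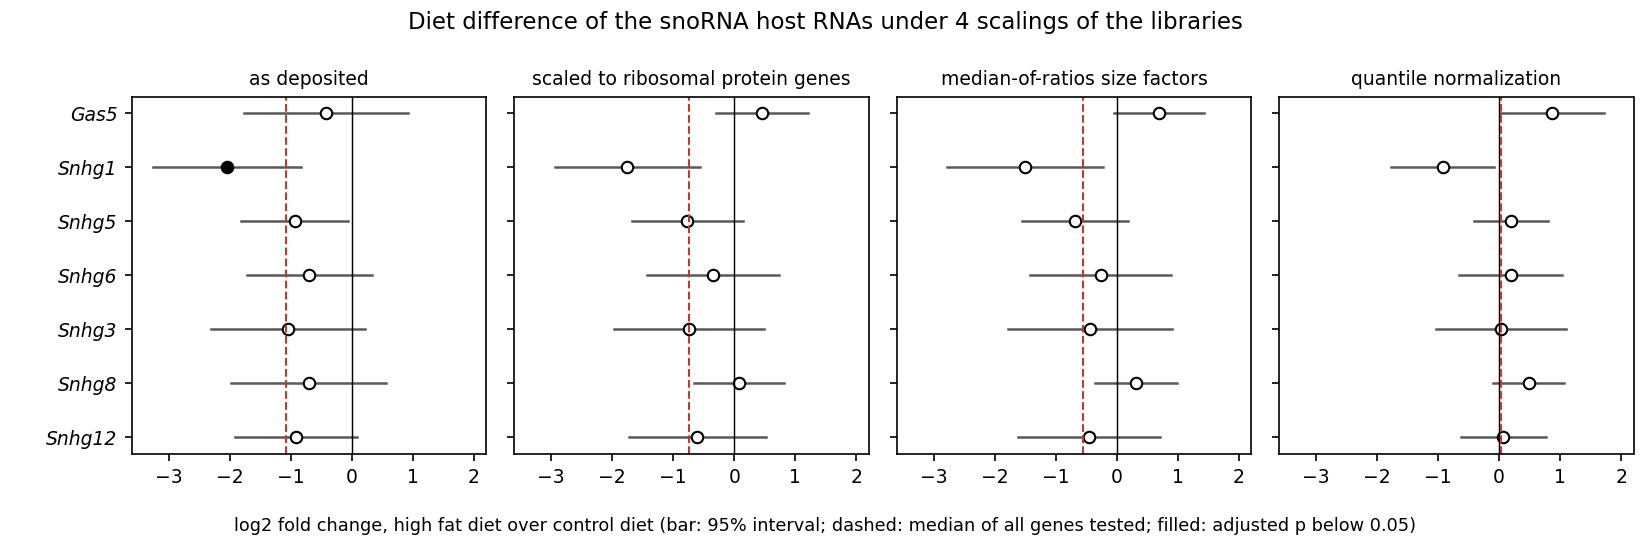
Log2 fold change of each host RNA, high fat diet over control diet, with its 95% interval from limma, in 4 panels by how the libraries were scaled; the dashed line is the median of all genes tested and a filled point has an adjusted p below 0.05. Snhg1 is the lowest in all 4 panels and filled in the first alone, and Gas5 is the highest in all 4 and lies left of 0 in the first alone.

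Within a library, the balance between host RNAs does not depend on how the library is scaled. Snhg1 relative to Gas5 was 0.415 in high fat diet 1, at most 0.161 and 0.395 in high fat diet 2 and 3, where Snhg1 was unlisted, and 0.416 in high fat diet 4. The ratio was 0.325, 1.40, 0.792, 0.962 and 2.31 in control diet libraries 1 to 5. Control diet 1 lay among the high fat diet libraries, and the other 4 control diet libraries lay above all of them. As this ratio was chosen after the values were seen, it is a description with no test.

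Relative to ribosomal protein mRNAs, the largest group of TOP transcripts, Gas5 stood at 43.6%, 28.5%, 66.6% and 42.6% of the median of 52 ribosomal protein genes in high fat diet libraries 1 to 4, against 54.9%, 23.5%, 35.8%, 24.4% and 22.6% in control diet libraries 1 to 5. Snhg8 stood at 29.5%, 21.2%, 33.4% and 37.5% in high fat diet libraries, against 30.8%, 26.9%, 20.9%, 19.1% and 50.6% in control diet libraries. Both overlapped between the diets. Snhg1 stood at 18.1% and 17.7% in high fat diet 1 and 4 and at no more than 4.59% and 26.3% in 2 and 3, against 17.8%, 33.0%, 28.4%, 23.4% and 52.2% in control diet libraries. High fat diet 3, the library with the lowest FPKM of Gas5 and Snhg8, thus had the highest Gas5 on this scale, and its Snhg8 was exceeded in high fat diet 4 and control diet 5 only. Both values of that library are imprecise by their bounds: Gas5 has 1.82 implied fragments, with bounds of 0 and 6.29 FPKM, and Snhg8 has 1.91, with a lower bound of 0, so their rank there is uncertain.

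**Figure D3:**
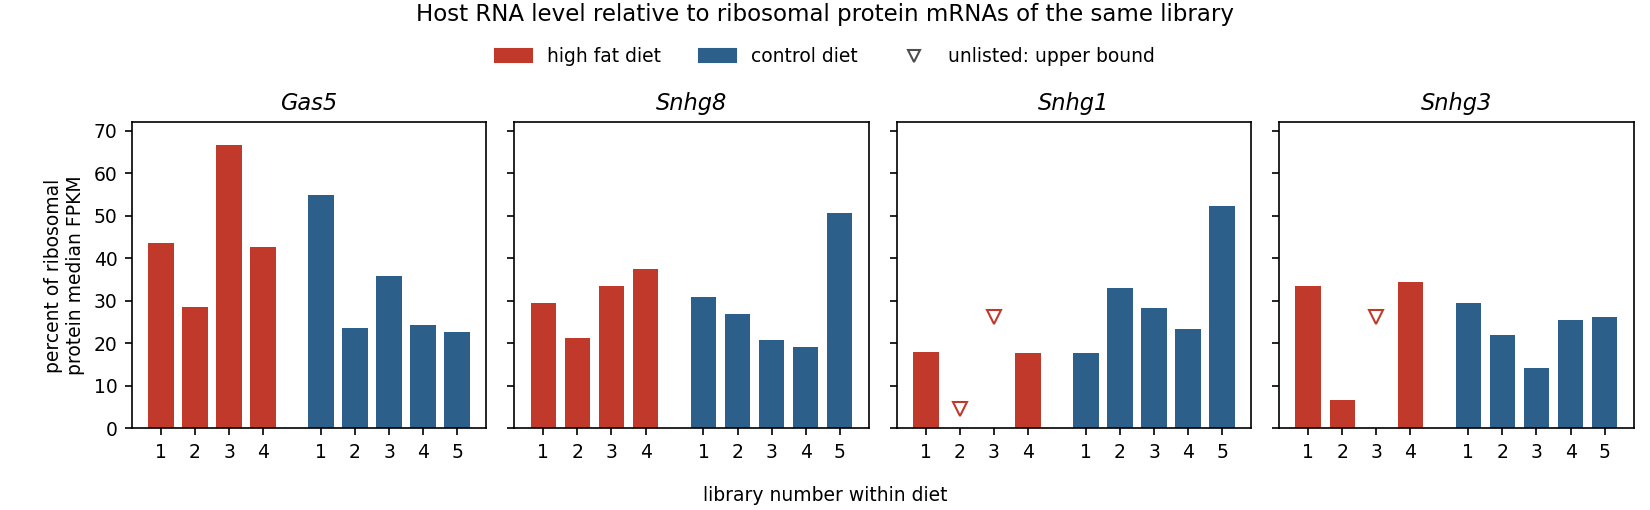
FPKM of Gas5, Snhg8, Snhg1 and Snhg3 as a percent of the median FPKM of 52 ribosomal protein genes in the same library, high fat diet libraries left and control diet libraries right; open triangles are upper bounds where the host RNA is unlisted. Gas5 peaks at 66.6% in high fat diet 3, a value with 1.82 implied fragments, and Snhg1 peaks at 52.2% in control diet 5.

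FPKM is per length, so levels of the host RNAs can be set side by side within libraries. By median FPKM over all 9 libraries, with unlisted values as 0, the order was Snhg8 at 8.92, Snhg1 at 7.68, Gas5 at 6.49, Snhg3 at 5.26, Snhg12 at 1.84, Snhg6 at 1.55 and Snhg5 at 1.15. Within each diet Gas5 came first, with a median of 6.35 FPKM on the high fat diet (Snhg8 5.16, Snhg1 1.35) and 12.0 FPKM on the control diet (Snhg8 8.98, Snhg1 9.21). Snhg8 exceeded Gas5 in 2 of 9 libraries, with a mean log2 difference of -0.26 (exact permutation test, adjusted p = 0.214), so the order of these at the top depends on how the libraries are pooled. Differences were tested on log2(FPKM + 1) by exact sign-flip permutation over the libraries, 2-sided, with a smallest possible p of 0.00391, and 12 of 21 pairs passed after adjustment. Of the 6 neighbouring pairs 2 passed. The gap between Snhg3 and Snhg12 was 1.30 on the log2 scale (exact permutation test, adjusted p = 0.0205) and passed with any 1 library left out, with adjusted p of 0.0205 to 0.041. Gas5 exceeded Snhg3 by 0.65 (exact permutation test, adjusted p = 0.041), a call that ended with any of the 4 high fat diet libraries or control diet 1, 2, 3 or 4 left out (exact permutation test, adjusted p = 0.0547 to 0.082). Snhg8 and Snhg1, Snhg1 and Gas5, Snhg12 and Snhg6, and Snhg6 and Snhg5 did not pass, with mean log2 differences of 0.55, -0.81, 0.08 and 0.35 (exact permutation test, adjusted p = 0.125, 0.109, 0.875 and 0.449). For Snhg1 and Gas5 the negative difference runs against the order of the medians.

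The snoRNAs inside the host genes are shown next for the 3 that were listed in all 9 libraries, since they can be set beside their hosts. The sequences are those of GENCODE M21 on GRCm38. In Snord22 the capitals mark the box D near the end, and in Snora73a and Snora73b they mark the 7 of 205 bases at which the pair differs, 96.6% being identical.
Snord22 in Snhg1, chr19:8725866-8725991, plus strand: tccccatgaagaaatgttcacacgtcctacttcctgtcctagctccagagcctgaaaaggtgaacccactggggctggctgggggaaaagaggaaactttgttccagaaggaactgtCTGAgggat
Snora73a in Snhg3, chr4:132352775-132352979, minus strand: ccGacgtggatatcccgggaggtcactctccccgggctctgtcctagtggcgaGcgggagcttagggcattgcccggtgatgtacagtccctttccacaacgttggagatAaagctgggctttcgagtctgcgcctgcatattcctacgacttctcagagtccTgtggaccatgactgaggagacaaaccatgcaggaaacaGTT
Snora73b in Snhg3, chr4:132352322-132352526, minus strand: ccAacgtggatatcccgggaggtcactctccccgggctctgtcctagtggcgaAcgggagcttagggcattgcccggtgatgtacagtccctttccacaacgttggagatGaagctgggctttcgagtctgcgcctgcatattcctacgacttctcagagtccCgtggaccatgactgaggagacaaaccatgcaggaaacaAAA

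The annotation places 29 snoRNA identifiers inside the 7 host genes. All 29 lie in an intron of at least 1 host transcript, and 26 also lie inside an exon of another annotated transcript, so some of their fragments can be assigned to the host. The 21 identifiers of 60 to 87 bases, among them those of Gas5, Snhg5 and Snhg6, were listed in none of the 9 libraries. Of the 8 identifiers of at least 100 bases 7 were listed, the exception being Snora24 of Snhg8. The same break by length held for all annotated snoRNAs, of which 0.437% of 458 below 100 bases and 7.53% of 1049 at or above it were listed. The unlisted box C/D snoRNAs are thus not shown to be absent from milk fat. The snoRNAs of Snhg12 were listed in 1 or 2 libraries each. Snora16a was listed in control diet 1, Snora44 in control diet 2 and 5, and Snora61 in high fat diet 1 and control diet 2.

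Snord22, a box C/D snoRNA needed for processing of small-subunit ribosomal RNA in frog oocytes, had 2386, 112, 723 and 565 FPKM in high fat diet libraries 1 to 4, against 263, 2814, 2327, 885 and 5478 FPKM in control diet libraries 1 to 5. High fat diet 2 was lowest, control diet 1 was second lowest, and high fat diet 1 lay below control diet 2 and 5 only. The log2 fold change was -1.41 with a standard error of 0.95 (limma, adjusted p = 0.191). In high fat diet 2 and 3 Snord22 was listed while its host Snhg1 was not, and control diet 2 and 5 had high Snord22 at moderate Snhg1.

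Snora73a had 187, 33.0, 34.4 and 57.4 FPKM in high fat diet libraries 1 to 4, against 158, 415, 503, 164 and 942 FPKM in control diet libraries 1 to 5. High fat diet 1 lay above control diet 1 and 4, and the other 3 high fat diet libraries lay below every control diet library. It was lower on the high fat diet, with a log2 fold change of -2.53 and a standard error of 0.90 (limma, adjusted p = 0.0411). This call ended with any single library left out other than high fat diet 1 and control diet 2 (limma, adjusted p = 0.0511 to 0.115), and with size factors (adjusted p = 0.3). Snora73b had 344, 33.0, 75.7 and 103 FPKM in high fat diet libraries, against 186, 426, 650.4, 236 and 1260.3 FPKM in control diet libraries, and a log2 fold change of -2.15 with a standard error of 0.91 (limma, adjusted p = 0.0664). Because the pair is nearly identical, the split of fragments between them is uncertain. The FPKM of RNAs this short depends on the length correction applied, so it is not compared in size with that of the hosts.

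**Figure D4:**
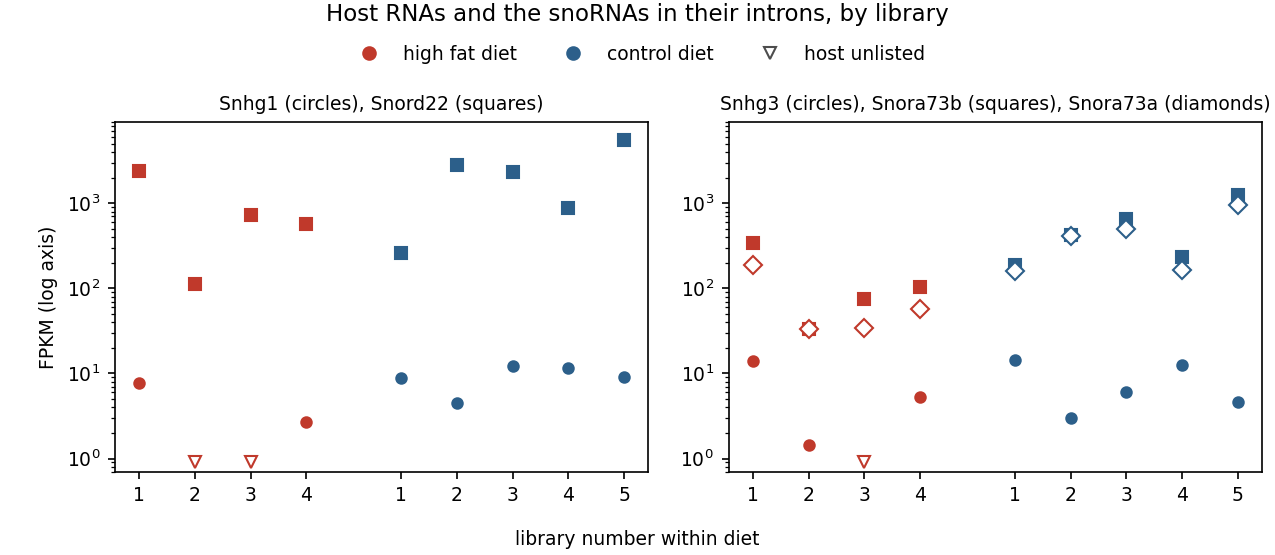
FPKM (log axis) of Snhg1 with Snord22, left, and of Snhg3 with Snora73b and Snora73a, right, in the 4 high fat diet and then the 5 control diet libraries; circles are hosts, squares and diamonds snoRNAs, and triangles unlisted hosts drawn just under 1. The order of libraries differs between Snhg1 and Snord22: control diet 1 has 8.82 FPKM of Snhg1 with 263 FPKM of Snord22, and control diet 2 has 4.50 with 2814.

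Other noncoding hosts were described from a list of 15 genes, of which 8 were listed and 5 were tested. Of these, 2 passed as lower on the high fat diet and none as higher, beside 20.8% of all genes called lower, with a list median of -1.45 against -1.08 for all genes. The first, 1110038B12Rik, had 14.0, 2.93 and 6.95 FPKM in high fat diet 1, 2 and 4 and no row in 3, against 17.9, 6.40, 23.5, 21.7 and 16.1 FPKM in control diet libraries (log2 fold change -1.85 ± 0.68 SE, limma adjusted p = 0.0454). Snhg15 had 3.65, 1.86 and 1.37 FPKM in high fat diet 1, 2 and 4 and no row in 3, against 3.64, 4.07, 8.42, 5.81 and 8.57 FPKM in control diet libraries (-1.52 ± 0.57 SE, limma adjusted p = 0.0464). Both calls ended without high fat diet 2 and 3, at -0.62 for 1110038B12Rik and -1.03 for Snhg15 (limma, adjusted p = 0.549 and 0.375), and with size factors (limma, adjusted p = 0.284 and 0.276). 2410006H16Rik (-1.45), Zfas1 (-1.06) and Epb41l4aos (-0.72) did not pass. Protein-coding hosts gave 0 of 24 called by limma (3 at an unadjusted p under 0.05), beside the same 20.8% of all genes called lower, with a median of -1.002. Of these, Rack1, a ribosome-bound scaffold protein and the most abundant of them, had a log2 fold change of -1.07, and Eif4a1, the helicase of the cap-binding complex, had -1.64 (limma, adjusted p = 0.0519).

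The pathways that host RNAs share were read from further lists, each beside the 20.8% of all genes called lower, and no gene in them was called higher. Of 71 cytosolic ribosomal protein genes 1 passed, Rpl35a (-2.51), with a list median of -0.94. Of 12 genes for the core and assembly of snoRNA particles 1 passed, Dkc1 (-1.61), the pseudouridine synthase of H/ACA particles, with a median of -1.07. Of 15 nonsense-mediated decay genes 2 passed, the kinase Smg1 (-1.76) and its substrate, the helicase Upf1 (-1.51), with a median of -0.999. Of 9 genes that govern TOP mRNA translation 3 passed, with a median of -1.09: Rptor (-1.47), the scaffold of the mTORC1 kinase, Larp1 (-1.39), which binds the TOP tract, and Eif4ebp1 (-1.97), which blocks the cap-binding protein. Dkc1, Smg1, Upf1, Rptor and Larp1 were each listed in 1 high fat diet library and in all 5 control diet libraries. They passed the filter through the control diet, and their fold changes rest largely on high fat diet values set to 0.

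Of 9 genes for the glucocorticoid receptor and its targets 5 passed as lower, with a median of -1.51. They were Tsc22d3 (-2.21), Per1 (-1.79), Klf9 (-1.51), Cebpb (-1.67) and Cebpd (-1.61), all transcriptional regulators induced by glucocorticoids. The 4 that did not pass were the receptor gene Nr3c1 (-0.95) and further targets of the receptor. Of 7 growth and Myc genes 4 passed, with a median of -1.84: the transcription factor Myc (-2.12), the cell cycle inhibitor Cdkn1a (-2.35), and the stress-induced Gadd45a (-1.84) and Gadd45b (-1.89). Myc and Gadd45a were each listed in 1 high fat diet library, and Per1, Klf9, Cebpb and Cdkn1a in 2 each. All 5 control diet libraries listed them, so their fold changes rest in part on high fat diet values set to 0. Of the 8 epithelial markers 4 passed as lower as well, with a median of -2.24. None of the genes in these lists passed with size factors, and none of those named here as lower passed without high fat diet 2 and 3.

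The genes most like Gas5 and Snhg8, the 2 members listed in every library, were sought by Pearson correlation over the 9 libraries. Each of 1845 genes listed in every library was set against the mean of the 2, on log2 values after size factor scaling. Genes whose symbol starts with Gm are among the 1845 but were left out before the 5 highest were taken. Of the genes that remained, the 5 highest were Rpl5-ps1 (r = 0.90), Mrpl24 (r = 0.88), Rpl31-ps9 (r = 0.87), Rpl9-ps6 (r = 0.87) and Rpl22 (r = 0.85). Of the 5, 3 are pseudogenes of ribosomal proteins whose fragments can come from the parent genes, Rpl22 is a ribosomal protein gene and Mrpl24 encodes a mitochondrial ribosomal protein. The median correlation was 0.02 over all genes ranked and 0.34 over 52 cytosolic ribosomal protein genes. All points share the size factors of their libraries, and the values are descriptions with no p. The remaining members did not enter the mean. With size factors Snhg1 had a log2 fold change of -1.50, against 0.69 for Gas5 and 0.32 for Snhg8. In high fat diet 3 the values of Gas5 and Snhg8 had 1.82 and 1.91 implied fragments.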

How the data were processed

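Total RNA libraries from 9 milk fat samples, made with a stranded kit per the labels' protocols, were grouped by the labelled diet. The authors deposited 1 table per library of FPKM with lower and upper confidence bounds, per the file headers. Per the submitters' processing notes, tools were the aligners Bowtie2 and TopHat, the FPKM estimator Cufflinks, and also FastQC, Trimmomatic, HTSeq and DESeq2; their versions and the genome build: not given in the sources used here. Of 11206 gene identifiers, 11165 matched GENCODE M21, and the bounds of 9309 were the same once the start was moved by 1 base, so positions are read as GRCm38. No count model was run, as counts were not analysed here. The upper bound was taken to lie 2 standard deviations above its FPKM, and the fragments implied by a value were estimated as the square of FPKM over that deviation. The members have 3 to 25 annotated transcripts. Any uncertainty in the bounds beyond counting error lowers the estimate, so it is not a fragment count. Total depth is unknown.

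Unlisted values were set to 0. Genes of at least 1 FPKM in at least 4 libraries, 7983 in all, were fitted with limma 3.58.1 in R 4.3.3 on log2(FPKM + 1), diet being the only term and the variance following a mean trend, with Benjamini-Hochberg adjustment and a threshold of 0.05. The added 1 makes fold changes of low genes smaller, while setting unlisted values to 0 acts the other way. With a floor of 1 FPKM in place of 0, the log2 fold change of Snhg1 went from -2.05 to -1.55. The median of all genes went from -1.08 to -0.71. The fit was also run on simulated data. These had no differences in scale between libraries and no cut at 1 FPKM, so that run cannot show how the fit handles either. Each library is 1 dam; dams were housed in pairs before mating and the labels do not tie them to cages, so p-values measure the spread between dams. Size factors are medians of ratios over 1847 genes listed in all 9 libraries; ribosomal protein scaling used 52 genes listed in all 9. Levels of members were compared by exact sign-flip tests over libraries in Python 3.11.15, adjusted over 21 pairs. Promoter and snoRNA sequences were read from RefSeq and GENCODE tables, and the Snora73 pair was aligned with Biopython 1.88.

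Named genes are every member, the snoRNAs inside them, and genes of each list by smallest p with the most abundant. The 5 genes most correlated with the mean of Gas5 and Snhg8 are named as well. Symbols starting with Gm were not eligible for those 5. Fewer than the rule allows are named per list. The members and lists were chosen with earlier results of these data known. Alternatives changed the pseudocount, floor, filter, scaling, variance model, library weights, replicate block and libraries left out.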

Additional observations from a re-analysis of the deposited data

Results flagged for a closer look

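Each diet group of each host RNA and of the 3 snoRNAs listed in all libraries was examined for a library far from the others, 20 groups in all. The gaps were taken on FPKM, not on the log2 values used in the other tests. For normally distributed values chance alone flags about 1 in 20 groups, and FPKM with unlisted values as 0 need not be so distributed. The rule flagged 2 groups, both with high fat diet 1 as the distant library. Snhg5 was listed at 1.30 FPKM in high fat diet 1 and unlisted, counted as 0, in the other 3 high fat diet libraries, so the gap spans the whole range of the group by construction. Any single listed value would be flagged in this way, and 1.30 may lie little above values at or below 1 FPKM. Snora73a reached 187 FPKM in high fat diet 1, where the other 3 libraries had 33.0 to 57.4 FPKM, and its gap of 0.842 of the FPKM range passed the critical value for 4 libraries. Whether it would pass on log2 values was not examined. High fat diet 1 also had the most listed genes of its diet and the neutrophil marker sum of 93.1 FPKM; the part of these in both values was not tested.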

How the results depend on the processing

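The number of genes called lower on the high fat diet, 1662 as deposited (3952 at an unadjusted p under 0.05), was 145 and 0 with pseudocounts of 0.1 and 10, 87 with a floor of 1 FPKM, 13 without the filter, 15 over genes listed in all 9 libraries, 0 under each of the 3 scalings, 11 without the variance trend, 6714 with library weights, 0 without high fat diet 2 and 3, and 16 to 5215 with 1 library left out. The 5215 came without high fat diet 1 and the 16 without high fat diet 3. The number called higher, 0 as deposited (5 unadjusted), was 13 with library weights and 0 to 4 with 1 library left out. The log2 fold change of Snhg1 stayed negative under every alternative, and it held its call with library weights and without high fat diet 1 or 4 or control diet 1 or 2. It lost the call at -3.70 and -0.64 (pseudocounts of 0.1 and 10), -1.55 (floor), -2.05 (no filter, and no trend), -1.50 (size factors), -0.92 (quantile normalization), -1.75 (ribosomal protein scaling) and -0.79 (without high fat diet 2 and 3). Quantile normalization reversed Gas5 (0.86), Snhg3 (0.0301), Snhg5 (0.19), Snhg6 (0.19), Snhg8 (0.49) and Snhg12 (0.068), size factors reversed Gas5 (0.69) and Snhg8 (0.32), and ribosomal protein scaling reversed Gas5 (0.46) and Snhg8 (0.0767). Leaving out high fat diet 2 and 3 reversed Gas5 (0.21) and Snhg3 (0.27). Library weights brought Snhg5 (-1.16), Snhg6 (-1.68) and Snhg12 (-1.35) past the threshold. With 1 library left out, the fold changes ran from -0.86 to -0.04 for Gas5, -2.67 to -1.63 for Snhg1, -1.70 to -0.39 for Snhg3, -1.25 to -0.71 for Snhg5, -1.06 to -0.31 for Snhg6, -1.11 to -0.25 for Snhg8 and -1.33 to -0.63 for Snhg12. In the same way the level differences ran from 0.51 to 0.76 for Gas5 over Snhg3 and from -0.16 to 0.25 for Snhg12 over Snhg6 (-0.06, -0.02 and -0.16 without high fat diet 4, control diet 3 or control diet 5). Of the other genes named, Epb41l4aos reversed with size factors (0.25), quantile normalization (0.41) and ribosomal protein scaling (0.0458), Rack1 with size factors (0.17) and quantile normalization (0.23), and Nr3c1 likewise (0.0133 and 0.22). Of the 19 other genes named as lower, all 19 lost the call with either pseudocount, no filter, each scaling, no trend, the replicate block, without high fat diet 2 and 3, and without high fat diet 3 or 4 or control diet 3. The cause of these changes was not tested. Few implied fragments behind the members limit any diet difference near 1 FPKM.

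The same replicate numbers occur in both diets. The deviations of same-numbered libraries from their diet means correlated at 0.12, -0.29, 0.02 and -0.15 over genes listed in all 9 libraries, so the numbers are not read as pairs. The replicate block left out control diet 5, whose number occurs in that diet alone. With it, 38 genes were called lower and 4 higher, and Snhg1 had a log2 fold change of -2.03 (limma, adjusted p = 0.103). Leaving out control diet 5 without a block gave the same fold change (limma, adjusted p = 0.0562).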
